A study of Homo sapiens with 3 samples.

Results

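The ZNF genes are human genes with a zinc finger symbol made of ZNF and a number, and they were measured here in 3 cultures of lung carcinoma cells profiled by single-cell RNA sequencing. Members are the gene symbols of that form that reached a level of 5 CPM in at least 1 culture, which was the case for 125 of the 439 such symbols listed and for 8751 of all 18692 symbols listed. CPM is the number of unique molecular identifiers (UMIs, 1 for each captured transcript molecule) of a gene, summed over all cells of a culture and scaled to a total of 1000000 in that culture. The cultures are ldR-H460 and mdR-H460, named in the labels as the long-term and the mid-term dR-H460 line, and their parent H460, an established human large-cell lung carcinoma line. The labels give H460 as the parental line of all 3, which were grown in flasks before capture. Per the labels' protocols, reprogrammed cells were prepared on a feeder layer of gamma-irradiated human fibroblasts in Pluriton medium, and no time was assigned to either derivative. With a single library of each culture there is no test and no replicate check, and a ratio compares 2 libraries. The members were chosen by their measured CPM in these libraries, so their levels and ratios are given as a description.

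Most ZNF proteins carry C2H2 zinc fingers, short folds held by a zinc ion that each read a few bases of DNA when they stand in tandem. A large share of the human family also carries a KRAB domain, which binds the corepressor TRIM28 and through it brings histone methylation and silencing to DNA, in many cases to transposable elements. KRAB zinc finger genes arose by repeated duplication and stand in clusters, above all on chromosome 19. Other members have no KRAB domain and act as activators, in RNA processing, in mitosis or in ribosome assembly.

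The ldR-H460, mdR-H460 and H460 libraries held 4956, 5151 and 4531 cells with 60468481, 66624830 and 66192074 UMIs, and the median cell had 12342.5, 11736 and 14685 UMIs. Between 24 and 36 cell barcodes were shared by any pair of libraries, and 0 by all 3. Of the epithelial markers, KRT8 stood at 459 to 625 CPM and KRT18 at 1080 to 1760 CPM in every culture, EPCAM stood at 0.347 CPM or less and CDH1 was listed in no culture. KRT19 had 40.3 CPM in ldR-H460, 194 CPM in mdR-H460 and 1700 CPM in H460. The 10 fibroblast markers together reached 4.68, 3.06 and 11.2 CPM in ldR-H460, mdR-H460 and H460, with 3, 4 and 6 of them above 3 UMIs, and COL1A2 was at 3 UMIs or fewer in each library. The leukocyte gene PTPRC was listed in no culture. Transcripts of the 125 ZNF genes made up 1711, 1582 and 1808 CPM in ldR-H460, mdR-H460 and H460. The part of any other cell type in the ZNF levels was not tested. Less RNA per cell and fewer cells with the transcript cannot be told apart in these sums.

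ZNF genes were expressed at low levels, and few of them stood far above the threshold. The median member had 7.66 CPM in ldR-H460, 6.92 CPM in mdR-H460 and 8.60 CPM in H460, and 5 CPM corresponded to 302, 333 and 331 UMIs in those libraries. Only 6 of the 125 members reached 50 CPM in any culture. The highest was ZNF706, a small protein with 1 finger whose mouse counterpart acts in the exit from pluripotency, with 170 CPM in ldR-H460, 159 CPM in mdR-H460 and 142 CPM in H460. ZNF593, the human counterpart of a yeast factor for export of the large ribosomal subunit, had 103, 126 and 115 CPM in ldR-H460, mdR-H460 and H460. ZNF511 had 111, 111 and 110 CPM in the same order of cultures, although its exons overlap those of TUBGCP2 on the other strand. These 3 genes therefore lay within 1.5-fold in every pair of libraries. A UMI stands for 1 transcript captured at its 3′ end, so these levels are not scaled by transcript length.

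The threshold was met in all 3 libraries by 78 members, in 2 libraries by 14 and in 1 library by 33. Of the last, 19 passed in ldR-H460 alone, 14 in H460 alone and 0 in mdR-H460 alone. Those 33 genes were below 5 CPM in the other cultures by construction. Just inside stood ZNF711 at 5.03 CPM in H460 and ZNF273 and ZNF790, both at 5.08 CPM in ldR-H460. Just outside stood ZNF140 at 4.998 CPM in mdR-H460 and ZNF513 and ZNF579, both at 4.99 CPM in H460.

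Among the 125 members, 2 stood apart from the rest by the size of their loss in the derivatives. ZNF804A (chr2:184598366-184939492, GRCh38), a protein with 1 finger known from the genetics of schizophrenia, had 1.06 CPM (64 UMIs) in ldR-H460, 0.0450 CPM (3 UMIs) in mdR-H460 and 9.41 CPM (623 UMIs) in H460. ZNF365 (chr10:62374192-62670301), which encodes a centrosomal protein in which no C2H2 finger pattern was found, had 0.198 CPM (12 UMIs) in ldR-H460, 0.0600 CPM (4 UMIs) in mdR-H460 and 7.24 CPM (479 UMIs) in H460. Both genes were thus present in the parent and nearly gone from the mid-term derivative. ZNF804A was 209-fold (71.2 to 1020) lower in mdR-H460 and 8.89-fold (6.87 to 11.7) lower in ldR-H460 than in H460, where the range is the exact 95% interval for counting error only. ZNF365 was 121-fold (46.8 to 444) lower in mdR-H460 and 36.5-fold (20.7 to 71.1) lower in ldR-H460 than in H460. The 3′ end of ZNF365 has near-identical copies at AC024598.1 and AC067752.1 in the annotation, so its counts are uncertain.

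At the other end, 3 members had the largest ratios of ldR-H460 over H460. ZNF530 (chr19:57599885-57612722), a KRAB gene with 13 fingers, had 5.14 CPM in ldR-H460, 3.89 CPM in mdR-H460 and 1.47 CPM in H460. ZNF467 (chr7:149764182-149773479), known in mouse for steering mesenchymal progenitors between fat and bone, had 7.99 CPM in ldR-H460, 2.04 CPM in mdR-H460 and 2.48 CPM in H460. ZNF286A (chr17:15699577-15720787), whose 3′ end is near-identical to that of ZNF286B, had 6.19 CPM in ldR-H460, 2.93 CPM in mdR-H460 and 2.21 CPM in H460. ZNF530 was high in both derivatives, while ZNF467 and ZNF286A were high in ldR-H460 and near or below 3 CPM in the other cultures. The ratios of ldR-H460 over H460 were 3.51-fold (2.79 to 4.46) for ZNF530, 3.22-fold (2.70 to 3.87) for ZNF467 and 2.80-fold (2.31 to 3.42) for ZNF286A.

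The promoters of these 5 genes are shown because they belong to the members that differed most, in each direction, between ldR-H460 and H460. Each runs from 250 bases before to 50 bases after the RefSeq start on GRCh38.p14, 5′ to 3′ on the strand of the gene, with every CpG in capitals. They lie at chr2:184598279-184598578 on the plus strand for ZNF804A, chr10:62374119-62374418 plus for ZNF365, chr19:57599635-57599934 plus for ZNF530, chr7:149773539-149773838 minus for ZNF467 and chr17:15699502-15699801 plus for ZNF286A.
ZNF804A: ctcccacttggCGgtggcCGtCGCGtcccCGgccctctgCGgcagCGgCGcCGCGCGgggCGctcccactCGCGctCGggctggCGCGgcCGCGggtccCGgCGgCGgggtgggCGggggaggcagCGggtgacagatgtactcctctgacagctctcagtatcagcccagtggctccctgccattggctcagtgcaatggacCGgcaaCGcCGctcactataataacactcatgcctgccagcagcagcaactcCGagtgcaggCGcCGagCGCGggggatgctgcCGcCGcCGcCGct
ZNF365: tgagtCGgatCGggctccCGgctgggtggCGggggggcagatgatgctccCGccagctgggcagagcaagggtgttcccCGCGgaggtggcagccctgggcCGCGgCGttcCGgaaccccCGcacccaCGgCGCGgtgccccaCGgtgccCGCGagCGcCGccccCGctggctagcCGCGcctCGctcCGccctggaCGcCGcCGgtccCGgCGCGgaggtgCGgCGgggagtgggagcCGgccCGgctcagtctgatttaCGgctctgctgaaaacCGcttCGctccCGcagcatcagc
ZNF530: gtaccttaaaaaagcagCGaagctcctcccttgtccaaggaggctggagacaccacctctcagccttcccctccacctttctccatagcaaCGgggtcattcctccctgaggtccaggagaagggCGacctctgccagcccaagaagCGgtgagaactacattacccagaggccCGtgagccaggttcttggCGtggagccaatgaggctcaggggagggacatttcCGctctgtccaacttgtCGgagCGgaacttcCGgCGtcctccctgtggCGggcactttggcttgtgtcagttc
ZNF467: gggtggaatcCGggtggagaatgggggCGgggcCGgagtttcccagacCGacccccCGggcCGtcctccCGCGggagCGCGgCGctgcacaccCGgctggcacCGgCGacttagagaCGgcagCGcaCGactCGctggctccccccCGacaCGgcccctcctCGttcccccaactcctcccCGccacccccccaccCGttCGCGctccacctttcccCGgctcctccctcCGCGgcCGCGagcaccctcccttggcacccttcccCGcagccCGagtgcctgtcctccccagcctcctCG
ZNF286A: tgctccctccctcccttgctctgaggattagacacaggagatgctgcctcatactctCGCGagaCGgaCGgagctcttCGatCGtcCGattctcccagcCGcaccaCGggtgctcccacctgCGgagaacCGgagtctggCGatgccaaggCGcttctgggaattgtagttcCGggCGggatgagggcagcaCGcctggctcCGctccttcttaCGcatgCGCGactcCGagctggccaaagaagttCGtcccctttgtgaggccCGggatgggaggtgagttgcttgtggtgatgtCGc
The promoters of ZNF804A and ZNF365 hold 36 and 39 CpG and are 72.3% and 75.7% G or C. That of ZNF467 is of the same kind, with 33 CpG and 75.0% G or C. ZNF530 has 12 CpG and 59.0% G or C, and ZNF286A has 24 CpG and 62.0%. These 5 are extremes, and the members as a set showed no such contrast in CpG content. In ldR-H460 against H460, the median promoter held 26 CpG for lower members, 25 for those within 1.5-fold and 26 for higher ones. No methylation was measured here.

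**Figure D1:**
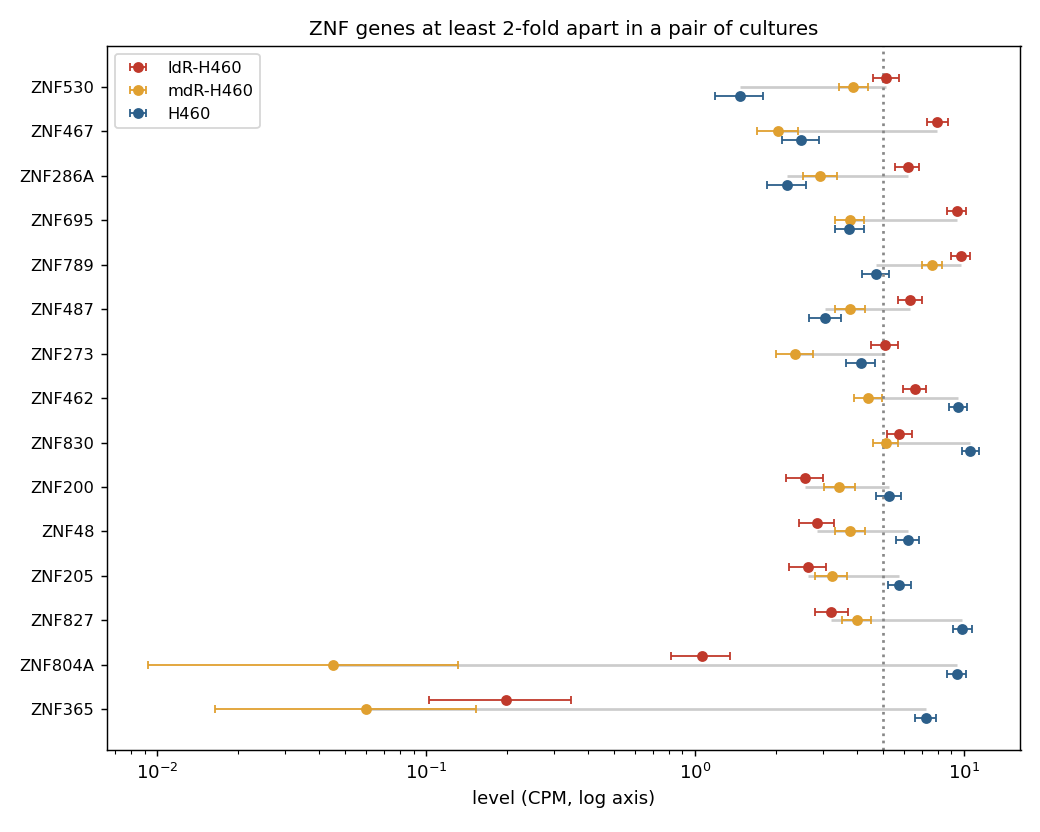
Level of the ZNF genes that were at least 2-fold apart in a pair of cultures, in CPM on a log axis, with red, yellow and blue points for ldR-H460, mdR-H460 and H460 and exact Poisson 95% intervals for counting error. The dotted line marks 5 CPM, and ZNF804A and ZNF365 in the lowest rows in mdR-H460 rest on 3 and 4 UMIs, against 9.41 and 7.24 CPM in H460.

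To see how the mid-term derivative differed from its parent, mdR-H460 was set against H460. A gene was counted as lower or higher when its level differed at least 1.5-fold. Of the 125 ZNF genes, 26 (20.8%) were lower and 2 (1.60%) higher in mdR-H460, against 18.8% lower and 5.26% higher among all 8751 genes at 5 CPM. The 14 members that passed 5 CPM in H460 alone had a lower level in mdR-H460 by construction. Over the 78 members at 5 CPM in all 3 libraries, 11 (14.1%) were lower and 0 higher, against 14% and 3.65% of such genes. At 2-fold, 1 of the 78 was lower and 0 higher, against 302 lower and 79 higher of the 7213 such genes. That minimum limits 2-fold gaps for genes near 5 CPM. The share of lower members was near the background in both counts. The median log2 ratio was -0.23 over the members and -0.13 over all genes, and it was -0.21 over the 6315 genes whose highest level lay between 5 and 50 CPM, where 119 of the members lie with a median of -0.24. TMM scaling (edgeR) moved the median of all genes to 0.05 and that of the members to -0.05, and the count became 11 lower and 6 higher. With DESeq2 size factors it became 12 lower and 5 higher. The members' median minus that of all genes was -0.10 under both, as it was with CPM.

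Apart from ZNF804A and ZNF365, the lower genes were moderate in their ratio. ZNF827, which brings the NuRD remodelling complex to telomeres, had 4.01 CPM in mdR-H460 against 9.90 CPM in H460 and was 2.47-fold (2.14 to 2.86) lower. ZNF462, a protein with 33 fingers and the largest number among the members, had 4.41 CPM in mdR-H460 against 9.56 CPM in H460. ZNF830, found with the splicing machinery, had 5.13 CPM in mdR-H460 against 10.6 CPM in H460. These 3 genes and the pair above were the 5 members at least 2-fold lower, against 7.82% of all genes, and ZNF530 was the 1 member at least 2-fold higher, against 2.27%. ZNF800 was 1.92-fold (1.72 to 2.14) lower, with 7.64 CPM in mdR-H460 against 14.7 CPM in H460. ZNF638, which takes part in the silencing of unintegrated retroviral DNA, was 1.81-fold (1.69 to 1.93) lower at 20.9 CPM in mdR-H460 against 37.8 CPM in H460. ZNF205, ZNF124, ZNF273 and ZNF503 followed, between 1.72-fold and 1.79-fold lower, and exons of ZNF205 and ZNF503 overlap annotated antisense genes.

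The genes higher in mdR-H460 were ZNF530, at 2.65-fold (2.09 to 3.39), and ZNF789, a KRAB gene on chromosome 7 with 7.62 CPM in mdR-H460 against 4.71 CPM in H460, at 1.62-fold (1.40 to 1.87). ZNF789 shares exon sequence with ZNF394 on the other strand, and the sources used here do not say whether counting used strand. ZNF394 itself had 8.81 CPM in mdR-H460 against 7.67 CPM in H460. Under 7 other ways of scaling or choosing cells together, 11 of the 26 lower genes kept their call, namely ZNF124, ZNF205, ZNF273, ZNF365, ZNF462, ZNF503, ZNF638, ZNF800, ZNF804A, ZNF827 and ZNF830, and so did ZNF530 and ZNF789.

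**Figure D2:**
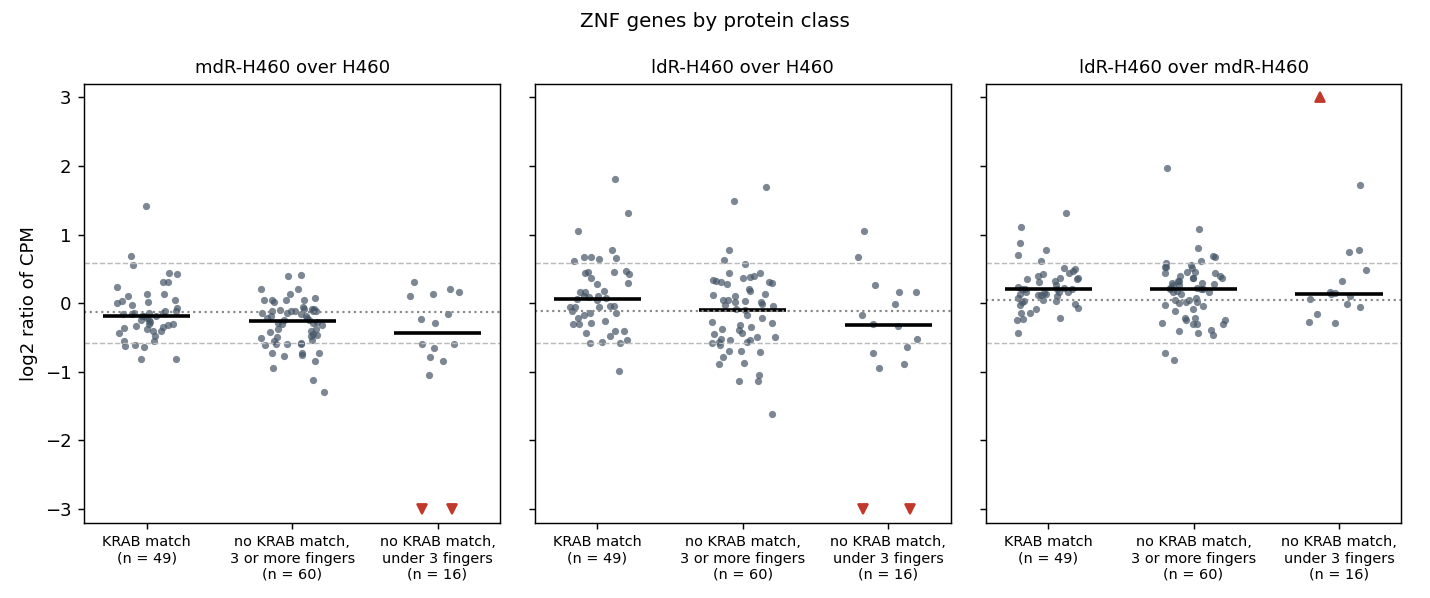
Log2 ratio of CPM of each of the 125 ZNF genes for 3 pairs of libraries, split by protein class, with the median of each class as a black bar, the median of all genes at 5 CPM as a dotted line and 1.5-fold as dashed lines. Triangles mark ZNF804A and ZNF365 beyond the axis (ZNF804A alone in the right panel), and the median of the KRAB class lies at -0.18, 0.06 and 0.20 in the 3 panels.

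Setting ldR-H460 against H460 asks the same of the long-term derivative. Of the 125 members, 18 were lower, against 19.5% of all genes, and 15 were higher, against 9.47% of all genes. In percent of the members these were 14.4% lower and 12% higher. A member that passed 5 CPM in a single culture was chosen through its highest level. The counts were therefore also made over the 78 members at 5 CPM in all 3 libraries. This leaves out members far apart in level, but also close ones such as ZNF790, with 5.08 CPM in ldR-H460, 4.73 CPM in mdR-H460 and 3.81 CPM in H460. Of the 78, 10 (12.8%) were lower and 4 (5.13%) higher, against 15.7% and 7.10% of all genes at 5 CPM in all 3 libraries. At 2-fold, 0 of the 78 were apart in either direction, against 375 lower and 158 higher of the 7213 such genes. A minimum in every library limits 2-fold gaps for genes near 5 CPM, where most members lie. The higher share was thus above the background over all members and below it over the 78. The median log2 ratio was -0.04 over the members and -0.12 over all genes. The sign of the members' median depended on the scaling, with 0.08 under TMM factors and 0.06 under DESeq2 size factors, so no direction is given for the group as a whole. Both comparisons with the parent use the same H460 library.

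Besides ZNF530, ZNF467 and ZNF286A, the members at least 2-fold higher in ldR-H460 were ZNF695, ZNF789 and ZNF487, so 6 in all (background 3.98%). ZNF695, a KRAB gene on chromosome 1, had 9.41 CPM in ldR-H460, 3.77 CPM in mdR-H460 and 3.76 CPM in H460. ZNF789 had 9.76 CPM in ldR-H460 against 4.71 CPM in H460, and ZNF487 had 6.30 CPM in ldR-H460 against 3.05 CPM in H460. ZNF695 overlaps the readthrough gene ZNF670-ZNF695 on its strand, and its count is uncertain for that reason. Among the 9 further higher genes, ZNF428 was the most abundant, with 54.6 CPM in ldR-H460 against 34.1 CPM in H460, 1.60-fold (1.52 to 1.69). ZNF217, a repressor known for its amplification in breast cancer, had 6.4 CPM in ldR-H460, 4.38 CPM in mdR-H460 and 4.14 CPM in H460. The others were ZNF28, ZNF430, ZNF514, ZNF544, ZNF585A, ZNF714 and ZNF746, of which ZNF28 and ZNF514 overlap ZNF468 and MRPS5 on the same strand.

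On the lower side stood 6 members at least 2-fold apart (background 8.60%), namely ZNF804A, ZNF365, ZNF827, ZNF205, ZNF48 and ZNF200. ZNF827 had 3.22 CPM in ldR-H460 against 9.90 CPM in H460, 3.07-fold (2.61 to 3.62) lower. ZNF205, ZNF48 and ZNF200, all on the short arm of chromosome 16, had 2.63, 2.84 and 2.56 CPM in ldR-H460 against 5.77, 6.21 and 5.27 CPM in H460. Each of these 4 genes had an intermediate level in mdR-H460. Exons of ZNF48 and ZNF205 overlap SEPT1 and ZNF213-AS1 on the other strand. ZNF622, which helps mature the large ribosomal subunit in the cytoplasm, had 20.0 CPM in ldR-H460, 35.6 CPM in mdR-H460 and 34.3 CPM in H460, and was 1.71-fold (1.60 to 1.84) lower in ldR-H460 than in H460. With cells called G1 alone, the number of lower members was 32 in place of 18 and that of higher members 16. All genes shifted as well. Among them, 47.7% had their lowest level in ldR-H460 in G1 cells, against 37.1% in all cells. For the members these shares were 42.4% and 26.4%. Under the 7 settings together, 14 of the 18 lower and 9 of the 15 higher genes kept their call.

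Between the derivatives, ldR-H460 had the higher level for 92 of the members (73.6%), against 53.8% of all genes and 58.8% of the genes of 5 to 50 CPM. Of the 125 members, 16 (12.8%) were higher in ldR-H460, against 11.3% of all genes, and 2 (1.60%) were lower, against 9.95% of all genes. These counts include the 19 members that passed in ldR-H460 alone, while 0 passed in mdR-H460 alone. Over the 78 members at 5 CPM in all 3 libraries, 3 (3.85%) were higher and 2 (2.56%) lower, against 7.40% and 8.25% of all such genes. At 2-fold, 0 of the 78 were apart, against 138 lower and 101 higher of the 7213 such genes. The median log2 ratio was 0.20 over the members and 0.04 over all genes, and 0.10 over the genes of 5 to 50 CPM. Under TMM factors the members' median was 0.13 and that of all genes -0.03. The members at least 2-fold higher were ZNF804A, ZNF467, ZNF365, ZNF695, ZNF273 and ZNF286A (background 3.37%), and 0 were 2-fold lower (background 3.61%). ZNF467 was 3.91-fold (3.23 to 4.77) and ZNF695 2.50-fold (2.15 to 2.91) higher. ZNF273, a KRAB gene, had 5.08 CPM in ldR-H460, 2.36 CPM in mdR-H460 and 4.14 CPM in H460, so it was low in mdR-H460 alone. ZNF804A rested on 64 UMIs in ldR-H460 and 3 in mdR-H460, a ratio of 23.5-fold (7.69 to 117), and ZNF365 on 12 and 4 UMIs.

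The lower genes were ZNF622 and ZNF232, and ZNF232 had 5.16 CPM in ldR-H460 against 8.53 CPM in mdR-H460. The share of cells called G1 was 16.2% in ldR-H460 and 38.0% in mdR-H460. With cells called G1 alone, 15 members were lower and 22 higher, and the median was 0.02. In these cells 42.4% of the members and 47.7% of all genes had their lowest level in ldR-H460. In mdR-H460 these shares were 36.8% and 32.4%. Under the 7 settings together, ZNF622 kept its call among the lower genes, as did 11 of the 16 higher ones, which were ZNF273, ZNF286A, ZNF365, ZNF367, ZNF467, ZNF487, ZNF496, ZNF585A, ZNF695, ZNF766 and ZNF804A.

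By CPM, mdR-H460 held the highest level of few ZNF genes. The highest level was in ldR-H460 for 57 members (45.6%), in mdR-H460 for 5 (4.0%) and in H460 for 63 (50.4%). For 33 members the choice of members set this culture, since 19 passed 5 CPM in ldR-H460 alone and 14 in H460 alone. The order was not counted over the 78 members at 5 CPM in all 3 libraries. Among all 8751 genes the shares with the highest level in ldR-H460, mdR-H460 and H460 were 31.3%, 22.4% and 46.3%. The lowest level was in ldR-H460 for 33 members, in mdR-H460 for 66 (52.8%) and in H460 for 26, against 38.1% of all genes with the lowest level in mdR-H460. The order depended on the scaling and on the cells used. Under TMM factors, an alternative added after the values were seen, the highest level was in ldR-H460 for 61 members, in mdR-H460 for 15 and in H460 for 49. The lowest was then in ldR-H460 for 35, in mdR-H460 for 39 and in H460 for 51. Among all genes under TMM factors, 33.6% had their highest level in mdR-H460, against 12% of the members, and 26.9% their lowest, against 31.2% of the members. With cells called G1 alone, also added afterwards, the lowest level was in ldR-H460 for 53 members (42.4%) and in mdR-H460 for 46 (36.8%), against 47.7% and 32.4% of all genes.

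**Figure D3:**
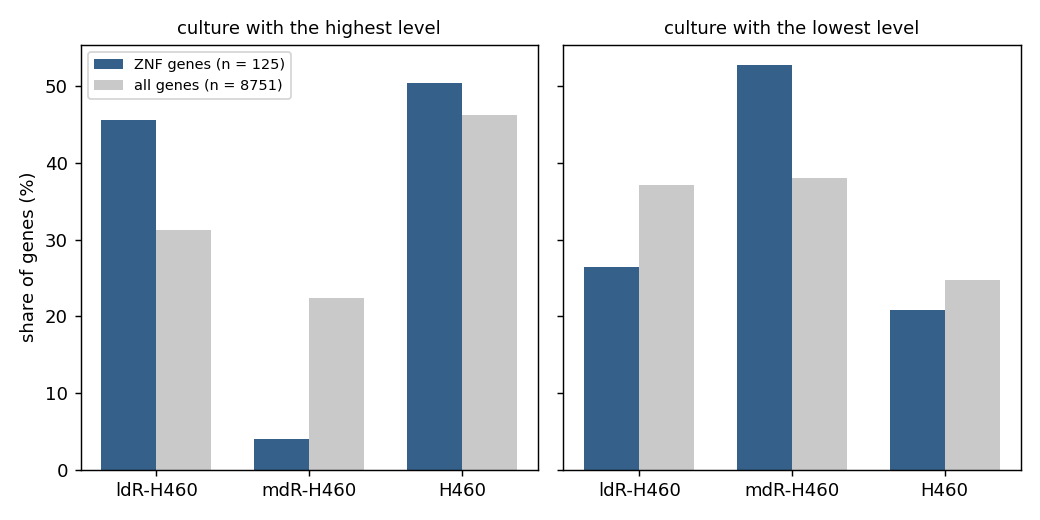
Share of genes, in percent, whose highest level (left) or lowest level (right) was found in each culture, with blue bars for the 125 ZNF genes and grey bars for all 8751 genes at 5 CPM. By CPM the blue bar of mdR-H460 is short on the left (4.0%) and tall on the right (52.8%), and under TMM factors these shares were 12% and 31.2%. For 33 of the 125, which passed 5 CPM in ldR-H460 or H460 alone, the choice of members set the culture with the highest level.

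The members were then split by protein structure, read from translated GENCODE coding sequences. A KRAB match, counted when at least 11 of 16 conserved positions were present, was found for 49 members. Divergent KRAB boxes are missed by this count, and so ZNF205, ZNF263, ZNF286A and ZNF496, which are known to carry a KRAB domain, matched at 10, 7, 9 and 7 positions and stand among the genes without a match. C2H2 fingers numbered 0 to 33 with a median of 8, and the median was 12 with a KRAB match and 5 without. The 49 KRAB genes held 5 of the 26 genes lower and both genes higher in mdR-H460 than in H460, and their median log2 ratio was -0.18. In percent, 10.2% were lower and 4.08% higher, against 18.8% and 5.26% of all genes. In ldR-H460 against H460, 1 KRAB gene (2.04%) was lower and 9 (18.4%) were higher, against 19.5% and 9.47% of all genes, with a median of 0.06. That lower gene was ZNF688, with 5.44 CPM in ldR-H460 against 10.8 CPM in H460. The 9 higher genes include ZNF28, ZNF514, ZNF530, ZNF585A and ZNF695, which passed 5 CPM in ldR-H460 alone, so the choice of members enters this share. With 1 matching position fewer, ZNF205 joined the class and 2 KRAB genes were lower. The 60 members with 3 or more fingers and no KRAB match had 13 lower and 0 higher in mdR-H460 against H460 (median -0.27), and 11 lower and 4 higher in ldR-H460 against H460 (median -0.09). The 16 with fewer than 3 fingers had 8 lower and 0 higher in mdR-H460 (median -0.44), and 6 lower and 2 higher in ldR-H460 (median -0.32). The sign of these medians moves with the scaling, so they are also given minus the median of all genes. In mdR-H460 against H460 this was -0.05 with a KRAB match, -0.14 without one and with 3 or more fingers, and -0.31 with fewer fingers. For ldR-H460 against H460 it was 0.18, 0.03 and -0.19.

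In ldR-H460 against mdR-H460 the classes had similar medians of 0.20, 0.21 and 0.14, with 6, 6 and 4 genes higher and 0, 2 and 0 lower. Class and place in the genome go together, since 25 of the 49 KRAB genes lie on chromosome 19. The KRAB genes of other chromosomes had 1 lower and 4 higher in ldR-H460 against H460, of 24, with a median of 0.00. The 12 members on chromosome 19 without a KRAB match had 1 lower and 2 higher and a median of 0.11. The 64 without a match on other chromosomes had 16 lower and 4 higher and a median of -0.31, and in mdR-H460 against H460 they had 21 lower and 0 higher and a median of -0.34.

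Of a short list of genes with known roles, 11 were members. In mdR-H460 against H460, 3 were lower and 0 higher, and in ldR-H460 against H460, 4 were lower and 1 higher. The lower shares were 27.3% and 36.4%, against 18.8% and 19.5% of all genes, and the higher shares 0 and 9.09%, against 5.26% and 9.47%. The promoter-binding factor ZNF148 had 13.1 CPM in ldR-H460, 12.8 CPM in mdR-H460 and 21.2 CPM in H460. ZNF326, a subunit of the DBIRD complex that links transcript elongation to splicing, had 34.1 CPM in ldR-H460, 35.3 CPM in mdR-H460 and 53.2 CPM in H460. With ZNF638, these 3 genes were lower in each derivative than in H460. Under the 7 settings together, ZNF638 kept its call in each derivative, while ZNF148 and ZNF326 did so in neither. ZNF207, which loads the checkpoint protein BUB3 on kinetochores, had 61.9 CPM in ldR-H460, 75.4 CPM in mdR-H460 and 88.6 CPM in H460 and stayed within 1.5-fold. ZNF143, an activator of housekeeping promoters, had 5.29, 6.56 and 7.13 CPM in ldR-H460, mdR-H460 and H460. ZNF274, which brings SETDB1 to the 3′ ends of ZNF genes, had 10.3, 11.4 and 13.7 CPM in the same cultures, and ZNF281, a repressor studied in stem cells, 15.9, 13.8 and 20.3 CPM. The ubiquitin ligase ZNF598, which recognises collided ribosomes, was level at 16.8, 15.1 and 16.9 CPM.

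Of 24 genes of the machinery that KRAB proteins recruit, 22 reached 5 CPM in at least 1 culture. TRIM28 itself had 70.0 CPM in ldR-H460, 60.2 CPM in mdR-H460 and 64.2 CPM in H460. In mdR-H460 against H460, 3 of the 22 (13.6%, against 18.8% of all genes) were lower and 0 higher (5.26% of all genes), with a median log2 ratio of -0.23 against -0.13 over all genes. These were CBX1, an HP1 protein, with 40.9 CPM in mdR-H460 against 82.5 CPM in H460, the remodeller SMARCAD1 with 5.03 CPM in mdR-H460 against 9.19 CPM in H460, and FAM208A of the HUSH complex with 8.0 CPM in mdR-H460 against 12.9 CPM in H460. For ldR-H460 against H460, CBX1 was the 1 lower gene (4.55%, against 19.5% of all genes) at 49.0 CPM in ldR-H460, 0 were higher (9.47% of all genes), and the median was 0.01. In ldR-H460 against mdR-H460, 4 were higher, namely KIAA1551, ATF7IP2, CHD3 and ATF7IP (18.2%, against 11.3% of all genes), and 0 lower (9.95% of all genes), with a median of 0.24. Related families outside the symbol rule were small at this threshold. The 10 ZBTB genes had a median of -0.29 in mdR-H460 and -0.17 in ldR-H460, both against H460, and ZBTB38 had 38.7 CPM in ldR-H460, 56.5 CPM in mdR-H460 and 87.0 CPM in H460. The 4 ZSCAN and ZKSCAN genes had medians of 0.40 and 0.47 in mdR-H460 and ldR-H460 against H460, and the 4 ZFP genes had -0.22 and 0.24.

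Positions came from GENCODE release 29 on GRCh38, in which all 125 members were matched by symbol, on 20 chromosomes. Chromosome 19 held 37 members (29.6%), against 5.65% of all genes at 5 CPM. Those 37 had 1 lower and 1 higher gene in mdR-H460 against H460, with a median log2 ratio of -0.12, where the 457 other genes of chromosome 19 had 0.01, with 8.53% lower and 5.25% higher. In ldR-H460 against H460 they had 1 lower (2.70%) and 7 higher (18.9%) and a median of 0.10, against 14% lower, 9.63% higher and 0.02 for the others. In ldR-H460 against mdR-H460 they had 0 lower and 5 higher (13.5%) and a median of 0.21, against 9.63% lower, 7.66% higher and -0.02. Both the 7 and the 5 higher genes include ZNF585A. The 7 also include ZNF28, ZNF430 and ZNF530, and the 5 also include ZNF264 and ZNF507. Each of these named genes passed 5 CPM in ldR-H460 alone, so the choice of members enters these shares. Chromosome 16 held 13 members. All 13 had a ratio below 1 in mdR-H460 against H460, as did 77.1% of the 376 other genes of that chromosome and 61.9% of all genes. Of the 13, 5 (38.5%) were called lower, against 24.7% of the other genes there and 18.8% of all genes, and the median was -0.55, where the others had -0.28. In ldR-H460 against H460, 4 (30.8%) were lower and 0 higher, with a median of -0.50, against 20.7% lower, 7.71% higher and -0.15 for the others. Of the 13, ZNF48, ZNF200, ZNF205 and ZNF668 passed 5 CPM in H460 alone, so their ratios below 1 were set by the choice of members. The first 3 of these are among the 4 lower genes in ldR-H460. The 9 members on chromosome 1 had 4 lower (44.4%) in mdR-H460 against H460 and a median of -0.55, where the other genes there had 25.8% lower and -0.28. The 11 on chromosome 7 had 0 lower and 3 higher (27.3%) in ldR-H460 against H460 and a median of 0.29. The other genes of chromosome 7 had 13.9% lower, 8.86% higher and a median of -0.04, and the 3 higher members were ZNF467, ZNF746 and ZNF789. Of these, ZNF467 passed 5 CPM in ldR-H460 alone. Each other chromosome held 9 members or fewer, and some of these had medians further from 0, such as -0.85 over the 3 members of chromosome 2 in mdR-H460 against H460.

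Runs of at least 4 annotated ZNF genes less than 250 kb apart that held at least 3 members were taken as genomic clusters. There were 12 of them with 48 members. A cluster on chromosome 16 (chr16:3112560-3443553) held ZNF205, ZNF200, ZNF263 and ZNF75A, and its median log2 ratio was -0.56 in mdR-H460 and -0.81 in ldR-H460, both against H460. Every one of its 4 members was below H460 in each derivative, between -1.13 and -0.50 in ldR-H460. ZNF205 and ZNF200 passed 5 CPM in H460 alone, so their place below H460 was set by the choice of members. Exons of ZNF263 and ZNF75A overlap TIGD7 on the other strand. The 1 other gene of the interval at 5 CPM had -0.01 in mdR-H460 and 1.03 in ldR-H460. The second cluster on that chromosome (chr16:30378106-30787202) held ZNF48, ZNF771, ZNF768, ZNF688 and ZNF689, with medians of -0.55 in mdR-H460 and -0.45 in ldR-H460. Its 6 other genes had medians of -0.34 and -0.48, close to the members, of which ZNF48 passed 5 CPM in H460 alone. Within it ZNF688 had 5.44 CPM in ldR-H460, 7.35 CPM in mdR-H460 and 10.8 CPM in H460, whereas ZNF771 had 12.1, 9.46 and 11.7 CPM in those cultures.

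On chromosome 1 (chr1:246945547-247331846), ZNF695, ZNF124 and ZNF496 were all higher in ldR-H460 than in mdR-H460, with a median log2 ratio of 0.80. ZNF124 had 9.97, 6.14 and 10.8 CPM and ZNF496 had 6.25, 3.60 and 5.44 CPM in ldR-H460, mdR-H460 and H460. So ZNF124 and ZNF496 were lowest in mdR-H460, while ZNF695 was high in ldR-H460 alone. A cluster at the end of chromosome 12 (chr12:132918308-133214831) held 4 KRAB genes, ZNF605, ZNF26, ZNF84 and ZNF268, with medians of -0.40 in mdR-H460 and -0.36 in ldR-H460, both against H460.

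The remaining 8 clusters lie on chromosome 19. Their medians in mdR-H460 against H460 stayed between -0.14 and 0.05. In ldR-H460 against H460, 3 of them had medians of 0.40 or more. These were chr19:20535825-24129961 with ZNF430, ZNF714, ZNF431 and ZNF738 (0.40), chr19:51571298-53580269 with ZNF766, ZNF480, ZNF83 and ZNF28 (0.46) and chr19:57191500-58481230 with ZNF264, ZNF530, ZNF274, ZNF544 and ZNF584 (0.44). The first interval held 0 other genes at 5 CPM, the second 1 at 0.10, and the third 5 with a median of 0.52, above that of its members. The third was uneven among its members, from -0.41 for ZNF274 to 1.81 for ZNF530. ZNF430 of the first, ZNF28 of the second and ZNF264 and ZNF530 of the third passed 5 CPM in ldR-H460 alone. The choice of members therefore enters these medians. ZNF544 had 24.3 CPM in ldR-H460, 21.0 CPM in mdR-H460 and 15.6 CPM in H460, and ZNF584 had 4.38, 5.15 and 5.41 CPM. In the cluster with the most members (chr19:36182060-37817300), 7 genes had a median of 0.11 and ranged from -0.54 for ZNF565 to 0.78 for ZNF585A, while the 3 other genes there had a median of 1.49. With a distance of 100 kb, ZNF565 and ZNF146 fell outside this cluster and its median was 0.36. Its members ZNF566, ZNF567, ZNF585A and ZNF790 passed 5 CPM in ldR-H460 alone. The neighbours ZNF585A and ZNF585B, both with 21 fingers, had 5.18 and 5.18 CPM in ldR-H460, 3.02 and 5.09 CPM in mdR-H460, and 3.01 and 4.97 CPM in H460, and as close paralogs they may share reads. The clusters around ZNF562 (chr19:9140380-9793180), ZNF576 (chr19:43525497-44500524), ZNF580 (chr19:55476332-55645622) and ZNF787 (chr19:56087366-56671783) had medians of -0.06, -0.17, 0.18 and -0.10 in ldR-H460 against H460. ZNF576 and ZNF428 moved apart in their shared cluster, with 13.9 and 54.6 CPM in ldR-H460 against 22.6 and 34.1 CPM in H460, and both overlap SRRM5.

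**Figure D4:**
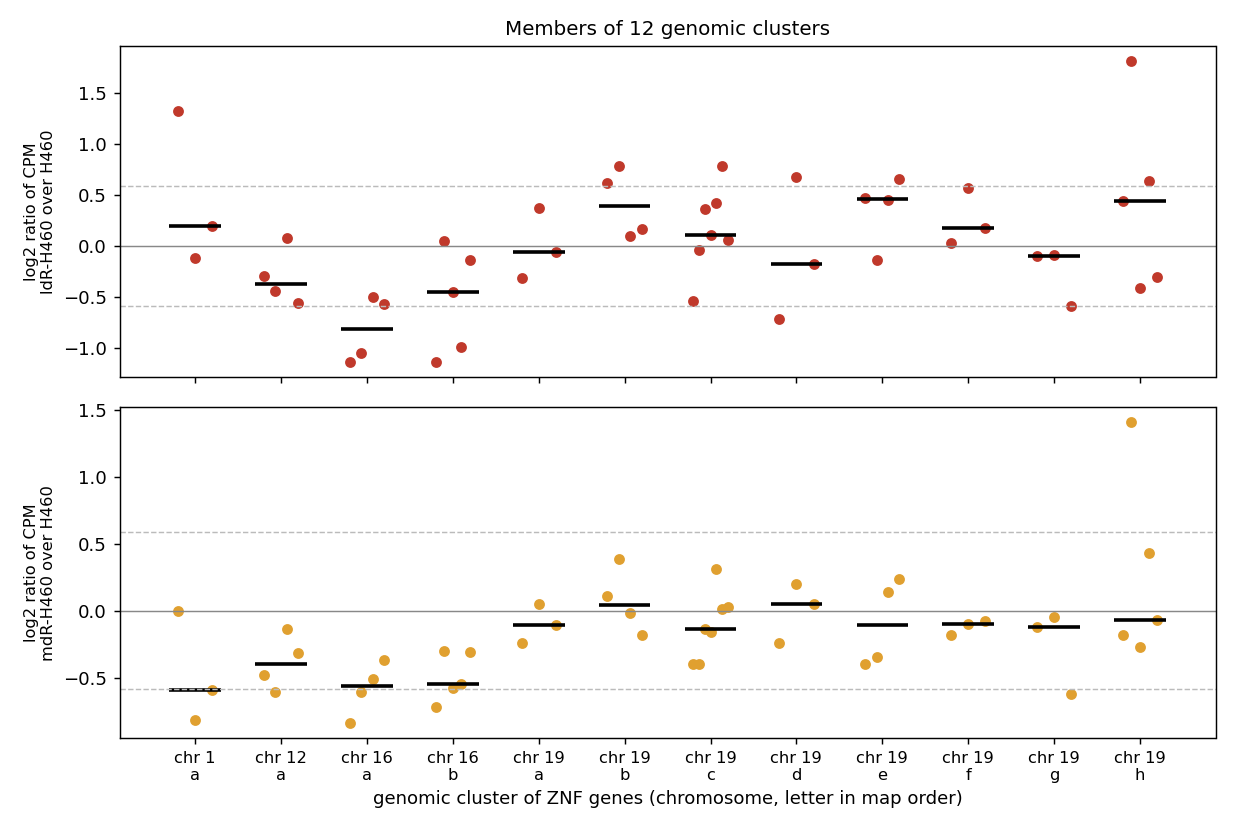
Log2 ratio of CPM of the 48 members in 12 genomic clusters, with ldR-H460 over H460 above and mdR-H460 over H460 below, black bars for the cluster medians and dashed lines at 1.5-fold. Both clusters of chromosome 16 lie below 0 in their medians, and 3 clusters of chromosome 19 have medians of 0.40 to 0.46 in the upper panel. The former hold members that passed 5 CPM in H460 alone, and the latter hold members that passed in ldR-H460 alone.

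Adjacent members at most 250 kb apart were compared by the difference of their log2 ratios. For mdR-H460 against H460 the median absolute difference over 37 adjacent pairs was 0.22, over pairs on different chromosomes 0.37, and over 6453 adjacent pairs of all genes 0.39. For ldR-H460 against H460 these were 0.50, 0.55 and 0.48, and for ldR-H460 against mdR-H460 they were 0.27, 0.35 and 0.42. Leaving out pairs with overlapping exons left 34 pairs with medians of 0.23, 0.49 and 0.26. By the median, adjacent ZNF genes were therefore closer than those of different chromosomes in mdR-H460 against H460 and in ldR-H460 against mdR-H460. In ldR-H460 against H460 the 2 medians were near each other. There, 35.1% of adjacent pairs were at least 1.5-fold apart, against 47.4% of pairs on different chromosomes and 41.8% of adjacent pairs of all genes. Pairs share genes and were not tested.

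Promoters were found in the RefSeq table for 110 of the 125 members and were searched on both strands for 5 motifs, with the share of all 27305 promoters of the same length beside. CCGGAAG, the core bound by ETS factors, occurred in 34.5% of member promoters, 47.6% of those with a KRAB match, 21.7% of those of all genes at 5 CPM and 10.7% of all promoters. GGGCGG, bound by SP and KLF factors, occurred in 65.5% of member promoters, against 71.6% for genes at 5 CPM and 44.6% for all promoters. The other motifs were the NRF1 site, the ZNF143 module and a palindrome of TCTCG and its reverse complement, searched by exact letters. The NRF1 site occurred in 4.55% of member promoters, against 2.62% for genes at 5 CPM and 1.36% for all promoters. The ZNF143 module occurred in 2.73%, against 0.617% and 0.256%, and the palindrome in 1.82%, against 1.23% and 0.469%. The promoter of ZNF286A printed above holds the ZNF143 module, the palindrome and GGGCGG, and that of ZNF530 holds CCGGAAG on the opposite strand. Member promoters held a median of 26 CpG, against 27 for genes at 5 CPM and 14 for all promoters. A match describes these letters and is not evidence of binding.

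In single cells the members were sparse. After thinning each cell to 5000 UMIs, which left out 435, 1271 and 681 shallower cells of ldR-H460, mdR-H460 and H460, the median cell had UMIs of 8, 7 and 8 of the 125 members. The variance of the UMIs per cell over their mean had a median of 1.01 in each culture, near the equality of both that counting alone gives. With UMIs in few cells, this value cannot show whether levels differ between cells. ZNF367 had 0.981 in mdR-H460, although its level there was 7.84-fold higher in cells called S than in cells called G1. The highest ratios were 1.08 for ZNF106 in ldR-H460, 1.23 for ZNF503 in mdR-H460 and 1.22 for ZNF622 in H460. ZNF804A was found in 0.575% (0.376 to 0.842) of thinned ldR-H460 cells, 0.0258% (0.000653 to 0.144) of mdR-H460 cells and 4.65% (4.01 to 5.36) of H460 cells, with exact Clopper-Pearson 95% intervals. Without thinning these were 1.25%, 0.0582% and 12.2%. No cell type without ZNF804A was part of the study, so a background share from free RNA could not be measured.

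Phases called from marker genes divided ldR-H460 into 41.9% S, 41.9% G2/M and 16.2% G1 cells, mdR-H460 into 29%, 32.9% and 38.0%, and H460 into 42.5%, 22.2% and 35.3%. The calls rest on scores per cell, into which free RNA enters, and its part was not tested. In S against G1 cells, 22 members were higher in ldR-H460 (background 22.1%), 11 in mdR-H460 (18.0%) and 8 in H460 (12.9%), and 11, 9 and 8 were lower (9.73%, 13.9% and 4.86%). ZNF genes higher in S cells of every culture were ZNF232, ZNF273, ZNF367, ZNF695 and ZNF714, which is 4.0% of the members against 9.60% of all genes. ZNF367 had 7.77, 5.72 and 8.70 CPM in S cells of ldR-H460, mdR-H460 and H460, against 2.29, 0.730 and 1.47 CPM in their G1 cells. ZNF695 had 10.5, 5.05 and 5.07 CPM in S cells, against 4.18, 1.34 and 1.52 CPM in G1 cells of the same cultures. ZNF281 was lower in S cells of each culture, with 13.5, 12.3 and 16 CPM against 24.6, 20.4 and 26.6 CPM in G1 cells.

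In G2/M against G1 cells, 20, 9 and 6 members were higher in ldR-H460, mdR-H460 and H460 (background 22.4%, 17.4% and 12.9%), and 10, 20 and 12 were lower (9.44%, 16.3% and 9.31%). There, ZNF273, ZNF367, ZNF695 and ZNF714 were higher in every culture (3.2% of the members, 9.23% of all genes) and ZNF385A, ZNF467 and ZNF580 lower (2.40%, against 4.46%). ZNF467 had 6.63, 1.12 and 0.883 CPM in G2/M cells of ldR-H460, mdR-H460 and H460, against 17.1, 4.26 and 3.64 CPM in their G1 cells. In S cells it had 6.79, 1.59 and 2.62 CPM in the same cultures. Within G1 cells it rested on 127, 70 and 72 UMIs. Summed over the members, levels varied less between phases, at 1722, 1746 and 1543 CPM in S, G2/M and G1 cells of ldR-H460, 1629, 1572 and 1539 CPM in those of mdR-H460 and 1842, 1790 and 1771 CPM in those of H460.

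**Figure D5:**
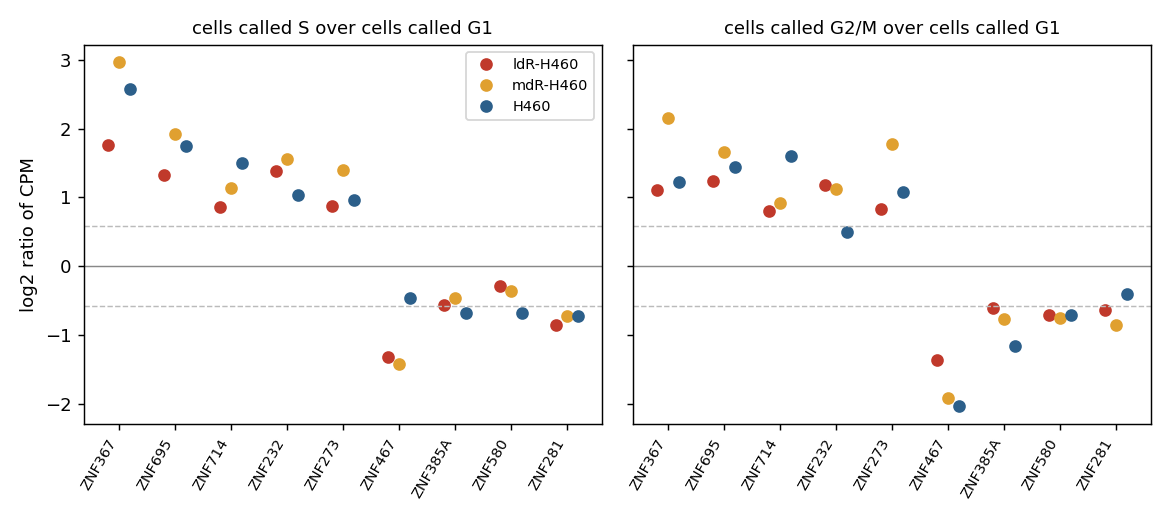
Log2 ratio of CPM in cells called S (left) or G2/M (right) over cells called G1, for the ZNF genes that were at least 1.5-fold apart in the same direction in all 3 cultures for either phase, with red, yellow and blue points for ldR-H460, mdR-H460 and H460. ZNF367 is highest on the left, at 1.76, 2.97 and 2.57, and ZNF467 lowest on the right, at -1.37, -1.92 and -2.04.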

How the data were processed

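The authors deposited 1 table of UMI counts per gene and cell for each culture, for cells kept after their quality filter, per the series design text. The counts were whole numbers without normalization. Libraries were made with Chromium 3′ chemistry and cells passed a 30 µm strainer, per the labels' protocols. The submitters' processing notes list GRCh38, Cell Ranger 3.0.2 and Seurat 3.0. Their settings, the annotation release and the use of strand are not given in the sources used here, and doublet removal is not stated there. No doublet caller was run. All value columns were mapped to a culture.

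Counts were summed over cells and scaled to CPM. A symbol not listed in a table was set to 0 UMIs, and a floor of 3 UMIs stood for 0 in ratios, 0.0496, 0.0450 and 0.0453 CPM in ldR-H460, mdR-H460 and H460. Ratios have exact conditional binomial intervals, sums exact Poisson and shares exact Clopper-Pearson intervals, all at 95% and for counting error only. PCR copies were collapsed by UMI. The members and gene lists were chosen with earlier results of these data known, and the phase readout was chosen after the values were seen. Genes named in the text are, for each pair, the 8 members with the largest ratios in each direction among those at least 1.5-fold apart and at 5 CPM in the higher library, the 8 members with the highest mean level, a list of known roles, up to 6 members of each cluster, and the 3 members just inside and outside the threshold. Other members, such as those listed by phase or in full counts, were named after their values were seen.

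Positions and coding sequences came from GENCODE release 29. Fingers and KRAB matches were read from its translated coding sequences, since no protein table was used here. Exon overlaps came from the same annotation, and the last 500 bases of each member were compared with all transcripts by BLAST+ 2.17.0 (98% identity over 90 bases), which found near-identical ends for 3 members. Exons of 9 members overlap another measured gene on the same strand and of 24 on the other. Phases were called with scanpy 1.11.5. Alternatives were TMM factors (edgeR 4.0.16), DESeq2 1.42.0 size factors, totals leaving out mitochondrial and ribosomal protein genes, cells weighted equally, cells thinned to 5000 UMIs, cells under 4000 genes, G1 cells, other level minimums, a 2-fold threshold, and other cluster distances and KRAB matches.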

Additional observations from a re-analysis of the deposited data

How the results depend on the processing

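With 1 library for each culture no replicate could be left out. No paired analysis was possible because each culture had 1 library. No named gene past 1.5-fold changed direction under the alternatives run, but the members' median in ldR-H460 against H460 (-0.04) was 0.08 under TMM and 0.06 under DESeq2 factors. In mdR-H460 against H460 (26 lower, 2 higher, median -0.23), TMM factors gave 11, 6 and -0.05 and DESeq2 factors 12 lower and 5 higher. Thinned cells gave 6 higher, G1 cells 5 higher, a 10 CPM minimum 10 lower and 0 higher, no minimum 88 lower and 46 higher, 2-fold 5 lower and 1 higher, and a 100 kb distance 4 lower in clusters in place of 7. In ldR-H460 against H460 (18 lower, 15 higher), G1 cells gave 32 lower, 10 CPM 10 lower and 3 higher, no minimum 67 and 74, 2-fold 6 and 6, and 1 KRAB position fewer 2 lower KRAB genes in place of 1. In ldR-H460 against mdR-H460 (2 lower, 16 higher), thinned cells gave 4 lower, G1 cells 15 lower, 10 CPM 1 lower and 3 higher, no minimum 41 and 69, and 2-fold 0 and 6. Stricter or absent minimums change the number of genes counted, and without a minimum many genes have few UMIs. In G1 cells all genes shifted too, with 47.7% lowest in ldR-H460 against 37.1% in all cells. The cause of the change in G1 cells was not tested. Depth limits genes near 5 CPM, where 302 to 333 UMIs stand behind a level, and far more those at 3 or 4 UMIs.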
